A study of Rattus norvegicus with 21 samples.

Results

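The genes described here were the 3 gonadotropin subunits (Lhb, Fshb and Cga), the receptor for gonadotropin-releasing hormone (Gnrhr), the nuclear receptor SF-1 (Nr5a1), and the nuclear receptors DAX1 (Nr0b1) and SHP (Nr0b2). They were chosen as a list of genes and found by symbol in the array annotation, 7 of 29214 probe sets, of which 15310 carry 1 symbol. Each gene had 1 probe set. That of Nr5a1 carries no symbol in the annotation and was named through the study's own list of genes.

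Affymetrix Rat Gene ST arrays were used to measure RNA in pituitaries of MENX rats, a rat model in which a homozygous mutation of Cdkn1b, the gene for the cell cycle inhibitor p27, is followed by multifocal adenomas of the anterior lobe. The mutant group held 16 dissected lesions, each on its own array, from 9 sample numbers, which were read as rats: 4 rats gave 1 lesion, 3 gave 2 and 2 gave 3. The control group held 5 normal pituitaries of wild-type rats. Both groups shared the strain Sprague–Dawley white eye/Wistar–Kyoto and the labels name no treatment. The mutant rats were 7 to 12 months old (6 females and 3 males) and the wild-type rats were all 6 months old (2 females and 3 males), so genotype, tumor and age cannot be told apart. Lesions of a rat were averaged, and the 9 rat values were compared with the 5 wild-type values.

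Gonadotrophs of the anterior lobe make luteinizing hormone and follicle-stimulating hormone, each a dimer of a common alpha subunit and its own beta subunit. Hypothalamic gonadotropin-releasing hormone acts on them through a receptor on their surface. SF-1 is the nuclear receptor that marks the lineage in the pituitary and activates its genes, together with EGR1 and PITX1 at Lhb. DAX1 and SHP lack the DNA-binding domain of other nuclear receptors and act mainly as corepressors of receptors such as SF-1.

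All 7 genes were called between adenomas and wild-type pituitaries (limma, adjusted p under 0.05 after Benjamini-Hochberg over 29214 probe sets), against 17.5% of all probe sets. The study had reported changes of these genes on the same samples, and they were chosen with earlier results known. The count is therefore no independent evidence. The alpha subunit, the GnRH receptor, SF-1, DAX1 and SHP were higher in adenomas, where 8.49% of probe sets were called higher. Both beta subunits were lower, where 9.06% were called lower. For 5 of the genes, all but Fshb and Nr0b1, the 16 lesions and the 5 wild-type pituitaries did not overlap, as was the case for 3.27% of all probe sets (1.92% with the lesions above and 1.36% with the lesions below).

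**Figure D1:**
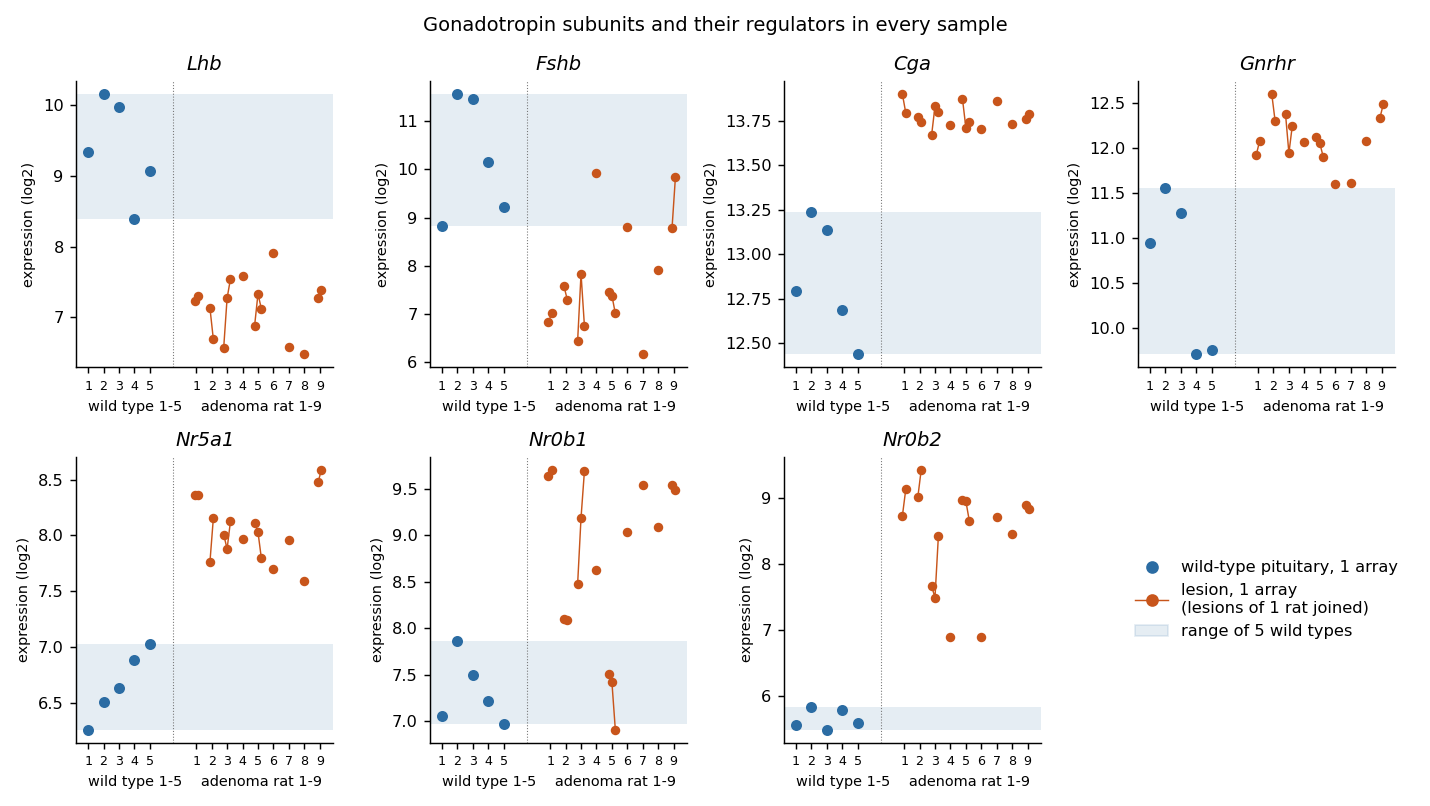
Expression of the 7 genes (y axis, log2) in the 5 wild-type pituitaries (blue) and in the lesions of the 9 adenoma rats (orange, 1 point per array, lesions of a rat joined), with the wild-type range shaded. Lhb lay below the shaded range in all 16 lesions, Cga, Gnrhr, Nr5a1 and Nr0b2 lay above it, and Fshb and Nr0b1 entered it in some lesions.

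The sequence before the start of 5 of the genes is shown because SF-1 and EGR1 can act there. Of the 7 genes, 6 had a promoter window in RefSeq (rat assembly GRCr8), and the 250 bases before the start are given 5′ to 3′ along the gene for the 5 that held a match to a motif searched. For Lhb, which has more than 1 start, the window at the start of the gene was used. Capitals mark every match, on either strand, to AAGGTCA (a site of SF-1), GGGGGCG (the EGR1 core) and TAATCC (a PITX1 site). They also mark AAGGCCA, a variant of the SF-1 site of the same length, and the shorter AGGTCA, which AAGGTCA contains.
Lhb (GRCr8 chr1:105037207-105037456, plus strand): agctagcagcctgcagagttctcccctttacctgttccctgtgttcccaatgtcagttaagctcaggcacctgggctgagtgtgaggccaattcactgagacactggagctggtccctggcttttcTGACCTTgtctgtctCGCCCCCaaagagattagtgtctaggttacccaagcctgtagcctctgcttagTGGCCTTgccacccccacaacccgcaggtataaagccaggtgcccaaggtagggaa
Cga (GRCr8 chr5:54283090-54283339, plus strand): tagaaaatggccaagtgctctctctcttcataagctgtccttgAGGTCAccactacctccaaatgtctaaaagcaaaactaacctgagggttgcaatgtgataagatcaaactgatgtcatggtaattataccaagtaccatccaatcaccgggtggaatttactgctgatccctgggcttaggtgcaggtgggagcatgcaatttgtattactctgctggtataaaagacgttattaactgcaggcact
Gnrhr (GRCr8 chr14:22211416-22211665, plus strand): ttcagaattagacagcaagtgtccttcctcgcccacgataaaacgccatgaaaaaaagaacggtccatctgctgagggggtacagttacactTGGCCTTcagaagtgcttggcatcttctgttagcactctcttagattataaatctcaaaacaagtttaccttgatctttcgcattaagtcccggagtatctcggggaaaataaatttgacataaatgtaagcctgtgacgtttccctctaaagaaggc
Nr0b1 (GRCr8 chrX:54707408-54707657, plus strand): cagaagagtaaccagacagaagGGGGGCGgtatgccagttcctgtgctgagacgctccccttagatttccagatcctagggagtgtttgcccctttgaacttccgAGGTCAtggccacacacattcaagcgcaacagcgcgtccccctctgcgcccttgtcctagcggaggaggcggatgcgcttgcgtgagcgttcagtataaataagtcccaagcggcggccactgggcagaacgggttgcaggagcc
Nr0b2 (GRCr8 chr5:151062910-151063159, plus strand): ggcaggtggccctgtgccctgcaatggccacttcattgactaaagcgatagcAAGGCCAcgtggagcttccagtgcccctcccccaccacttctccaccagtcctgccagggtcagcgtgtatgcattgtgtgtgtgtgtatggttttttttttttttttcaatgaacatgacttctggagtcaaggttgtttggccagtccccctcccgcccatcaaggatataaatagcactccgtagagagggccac

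Among the 6 windows, AAGGTCA was found in that of Lhb, as its reverse complement 124 to 118 bases before the start, and 3.99% of 33469 rat promoter windows of the same length held it. GGGGGCG was found in Lhb, again reversed, 109 to 103 bases before the start, and in Nr0b1 228 to 222 bases before it, against 13.2% of all windows. TAATCC was found in none of the 6, against 6.34%. The shorter AGGTCA was found in Lhb, Cga and Nr0b1 (14.1% of all windows). The variant AAGGCCA was found in Lhb, Gnrhr and Nr0b2 (5.29%), the last 198 to 192 bases before the start. Both AGGTCA and AAGGCCA were added after the data were seen, so their matches are no evidence that these genes stand out. A match is a run of letters and was not tested as a binding site. Only these exact letters were searched, so a missing match does not show that a site is absent.

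Lhb, which encodes the beta subunit of luteinizing hormone, was lower in adenomas. Its log2 values in wild-type pituitaries 1 to 5 were 9.34, 10.16, 9.98, 8.39 and 9.07, and the 16 lesions ran from 6.48 over a median of 7.25 to 7.91. All 16 lesions lay below every wild-type pituitary, the nearest by 0.49. The mean fell from 9.39 ± 0.71 (SD, n = 5) to 7.15 ± 0.45 (SD, n = 9 rats), a log2 change of -2.24 (standard error 0.28, 95% interval -2.84 to -1.65), which is 4.74-fold lower (limma, adjusted p = 0.000183). In bulk tissue, fewer cells of a type and less RNA per cell cannot be told apart, here and for every gene below.

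Fshb, which encodes the beta subunit of follicle-stimulating hormone, was lower too, with a wider spread in both groups. Wild-type pituitaries 1 to 5 had log2 values of 8.83, 11.56, 11.47, 10.15 and 9.21, and the lesions ran from 6.17 over a median of 7.42 to 9.93. In 14 of 16 lesions, and 7 of 9 rats, Fshb lay below every wild-type value, while the single lesion of rat 4 (9.93) and 1 lesion of rat 9 (9.83) lay inside the wild-type range. The mean was 10.24 ± 1.26 in wild type (SD, n = 5) and 7.86 ± 1.24 in adenomas (SD, n = 9), a log2 change of -2.38 (standard error 0.62, 95% interval -3.69 to -1.07), or 5.20-fold lower (limma, adjusted p = 0.0161). The call was lost without wild-type pituitary 3, when the log2 change was -2.07 (adjusted p = 0.0528).

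Cga, which encodes the alpha subunit that these hormones share with thyrotropin, was higher and almost uniform. Wild-type pituitaries 1 to 5 had log2 values of 12.79, 13.23, 13.14, 12.69 and 12.44, and the lesions spanned only 13.67 to 13.90 with a median of 13.77, all of them above every wild-type value. The mean rose from 12.86 ± 0.33 (SD, n = 5) to 13.77 ± 0.052 (SD, n = 9), a log2 change of 0.91 (standard error 0.11, 95% interval 0.69 to 1.14), or 1.89-fold (limma, adjusted p = 0.000109). This value sat at the top of the scale. On the lesion arrays 0 to 4 probe sets lay above Cga, which was within 0.27 log2 units of the brightest probe set, and on the wild-type arrays 17 to 166 did, at a distance of 0.85 to 1.52. Near that ceiling a fold change and a spread can both be understated, which was not tested here.

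**Figure D2:**
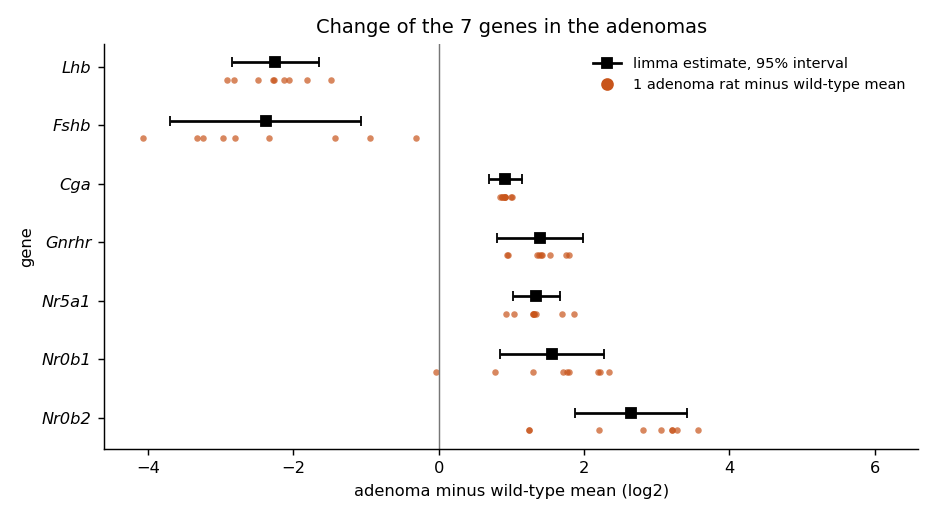
Change of each gene in adenomas against the wild-type mean (x axis, log2), with the limma estimate and its 95% interval as black squares and bars and each of the 9 adenoma rats as an orange point. The intervals of Lhb and Fshb lay below 0 and those of the other 5 genes above it, and 1 rat of Nr0b1 sat at about the wild-type mean.

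Within a rat the alpha subunit moved apart from the beta subunits. The distance from Lhb up to Cga was 3.47 ± 0.49 log2 units in wild type (SD, n = 5) and 6.63 ± 0.48 in adenomas (SD, n = 9), a shift of 3.16 (exact permutation test over 2002 arrangements, two-sided, adjusted p = 0.0007 over 7 pairs). For Cga against Fshb the shift was 3.29 (exact permutation test, adjusted p = 0.0012). The ranges of the rats did not overlap for Cga minus Lhb, while for Cga minus Fshb the lowest adenoma rat (3.80) lay below the highest wild-type rat (3.96). The adenoma values of Cga lay near the ceiling, so these shifts may be understated, which was not tested. Each shift adds a rise and a fall already given above and is no separate evidence. These are differences of log2 values of different probe sets, so their shift between groups is a measurement and their level is not a ratio of RNA.

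Between the beta subunits no shift was detected. Fshb minus Lhb was 0.85 ± 0.99 in wild type and 0.72 ± 1.01 in adenomas (exact permutation test, two-sided, adjusted p = 0.81 for 5 against 9 rats). Its sign turned when some single rats were left out, with shifts between -0.48 and 0.090.

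**Figure D3:**
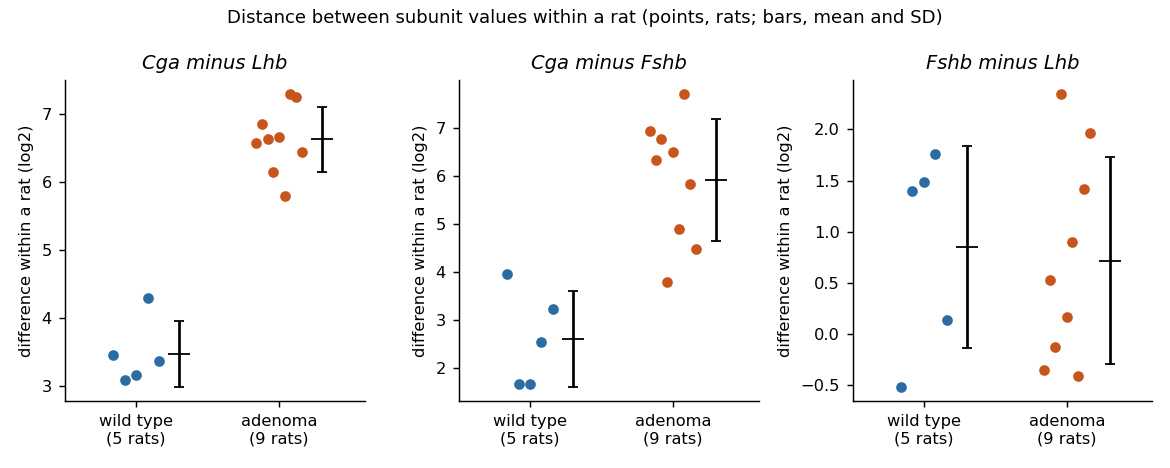
Difference of 2 subunit values within a rat (y axis, log2) for Cga minus Lhb, Cga minus Fshb and Fshb minus Lhb in 5 wild-type rats (blue) and 9 adenoma rats (orange), with the mean and SD as bars. Cga minus Lhb lay between 3.07 and 4.29 in wild type and between 5.80 and 7.29 in adenomas, and Fshb minus Lhb overlapped between the groups.

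Gnrhr, which encodes the receptor through which the hypothalamus drives both gonadotropins, was higher in adenomas. Its log2 values in wild-type pituitaries 1 to 5 were 10.94, 11.56, 11.27, 9.71 and 9.76, and the lesions ran from 11.59 over 12.08 to 12.60. All lesions were above all wild-type pituitaries, but by as little as 0.037. Wild-type pituitaries were the more variable group (10.65 ± 0.86, SD, n = 5, against 12.04 ± 0.30, SD, n = 9). The log2 change was 1.40 (standard error 0.28), 2.63-fold (limma, adjusted p = 0.0036). With unequal variances in the groups allowed for, the call was lost (adjusted p = 0.13).

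Nr5a1, which encodes SF-1, had log2 values of 6.26, 6.51, 6.63, 6.88 and 7.03 in wild-type pituitaries 1 to 5, and the lesions ran from 7.59 over 8.02 to 8.59. No lesion came within 0.56 of a wild-type value. The means were 6.66 ± 0.30 (SD, n = 5) and 8.01 ± 0.29 (SD, n = 9), a log2 change of 1.34 (standard error 0.15), 2.54-fold (limma, adjusted p = 9.91e-05). Measured against Lhb within a rat, Nr5a1 shifted by 3.59 log2 units and Gnrhr by 3.64 (exact permutation tests, adjusted p = 0.0007 each), which again adds changes already given.

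Nr0b1, which encodes DAX1, was higher in all rats but 1. Wild-type pituitaries 1 to 5 had log2 values of 7.05, 7.87, 7.50, 7.21 and 6.97, and the lesions ran from 6.91 over 9.06 to 9.70. The 3 lesions of rat 5, a male of 12 months, had 7.51, 7.42 and 6.91 and lay within or below the wild-type range, while the other 13 lesions lay above it. The means were 7.32 ± 0.36 (SD, n = 5) and 8.88 ± 0.78 (SD, n = 9), a log2 change of 1.56 (standard error 0.33), 2.95-fold (limma, adjusted p = 0.0055). In the same lesions of rat 5 SHP was high, at 8.97, 8.95 and 8.66.

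Nr0b2, which encodes SHP, was higher in all 9 adenoma rats. Wild-type pituitaries 1 to 5 lay close together at log2 values of 5.56, 5.83, 5.49, 5.79 and 5.60, and the lesions ran from 6.89 over 8.72 to 9.43, each at least 1.06 above the highest wild-type value. These wild-type values lay below the array medians of 6.36 to 6.53. At such dim values a spread and a fold can both be understated, which was not tested here. The means were 5.65 ± 0.15 (SD, n = 5) and 8.30 ± 0.88 (SD, n = 9), a log2 change of 2.65 (standard error 0.36, 95% interval 1.88 to 3.42), 6.27-fold (limma, adjusted p = 0.000324). In the 2 adenoma rats of 7 or 8 months alone the log2 change was 1.24 (limma, adjusted p = 0.0096). Against Lhb within a rat, Nr0b2 shifted by 4.89 log2 units and Nr0b1 by 3.81 (exact permutation tests, adjusted p = 0.0007 each), likewise sums of changes already given.

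The numbers given to the animals began with either 08 (5 adenoma rats, 2 wild-type rats) or 09 (4 adenoma rats, 3 wild-type rats), and the labels do not say what this marks. Within 08 and within 09 in that order, the log2 change was -2.55 and -2.07 for Lhb, -2.48 and -2.23 for Fshb, and 0.76 and 1.01 for Cga. For the regulators it was 0.90 and 1.67 for Gnrhr, 1.67 and 1.10 for Nr5a1, 1.09 and 2.06 for Nr0b1, and 2.66 and 2.61 for Nr0b2. All directions were kept. Each of the 3 adenoma males had an 08 number, so sex and prefix are mixed in these changes. Within 08 the limma calls of Fshb, Gnrhr, Nr0b1 and Nr0b2 were lost, and within 09 that of Fshb.

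The genes differed in how evenly lesions of a rat shared a level. In the 5 rats with more than 1 lesion (12 lesions), the SD within a rat was 0.32 for Lhb, 0.51 for Fshb, 0.37 for Nr0b1 and 0.32 for Nr0b2, against 0.45, 1.24, 0.78 and 0.88 between the 9 rats. For Gnrhr and Nr5a1 it was 0.17 and 0.15 within and 0.30 and 0.29 between rats. Cga was the exception, with 0.072 within and 0.052 between rats, both at the ceiling of the scale. The widest range within a rat was that of rat 3 for every gene but Nr5a1, and reached 1.39 for Fshb and 1.21 for Nr0b1. These spreads are descriptions, with no test.

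Whether regulators and subunits varied together was examined over the 9 adenoma rats in 12 relations, and none passed Benjamini-Hochberg adjustment. By Pearson's r the largest in size were those of Nr0b2, but by Spearman's rho Nr5a1 with Cga (0.55), Nr0b1 with Cga (0.52) and Nr0b1 with Fshb (-0.43) were larger than Nr0b2 with Lhb or Fshb. The relations with Cga rest on a spread between rats (0.052) smaller than that within rats (0.072). For Nr0b2 with Lhb, Pearson's r was -0.65 (exact permutation p = 0.061, adjusted p = 0.41) and Spearman's rho was -0.38 (exact permutation p = 0.31, adjusted p = 0.61). With Cga, r was 0.62 (exact permutation p = 0.070, adjusted p = 0.41) and rho 0.60 (exact permutation p = 0.097, adjusted p = 0.61). With Fshb, r was -0.58 (exact permutation p = 0.10, adjusted p = 0.41) and rho -0.35 (exact permutation p = 0.36, adjusted p = 0.61).

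These relations rested on rats 4 and 6, the rats of 7 and 8 months, which had the lowest Nr0b2. Without them r was 0.11 with Lhb, 0.15 with Fshb and 0.21 with Cga. Within the 08 numbers (5 rats) r of Nr0b2 was -0.81 with Lhb, -0.79 with Fshb and 0.59 with Cga, and within 09 (4 rats) it was -0.72, -0.31 and 0.67, and each of these holds 1 of the young rats and too few rats for a test. Over the 16 lesions as separate points, which share rats, r was -0.40, -0.38 and 0.34.

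For SF-1, the GnRH receptor and DAX1 r with the beta subunits was at most 0.22 in size. Nr5a1 had an r of 0.20 with Lhb (exact permutation p = 0.61, adjusted p = 0.96) and 0.059 with Fshb (exact permutation p = 0.89, adjusted p = 0.96), and 0.50 with Cga (exact permutation p = 0.16, adjusted p = 0.47). Gnrhr had -0.13, 0.22 and -0.17 with Lhb, Fshb and Cga (exact permutation, adjusted p = 0.96 each). Nr0b1 had -0.022, -0.035 and 0.36 (exact permutation, adjusted p = 0.96, 0.96 and 0.82). Without rats 5 and 2, the farthest from its median, Nr0b1 had an r of 0.81 with Cga and -0.61 with Fshb. Spearman's rho of these 9 relations lay between -0.43 and 0.55, with adjusted p of 0.61 or more.

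**Figure D4:**
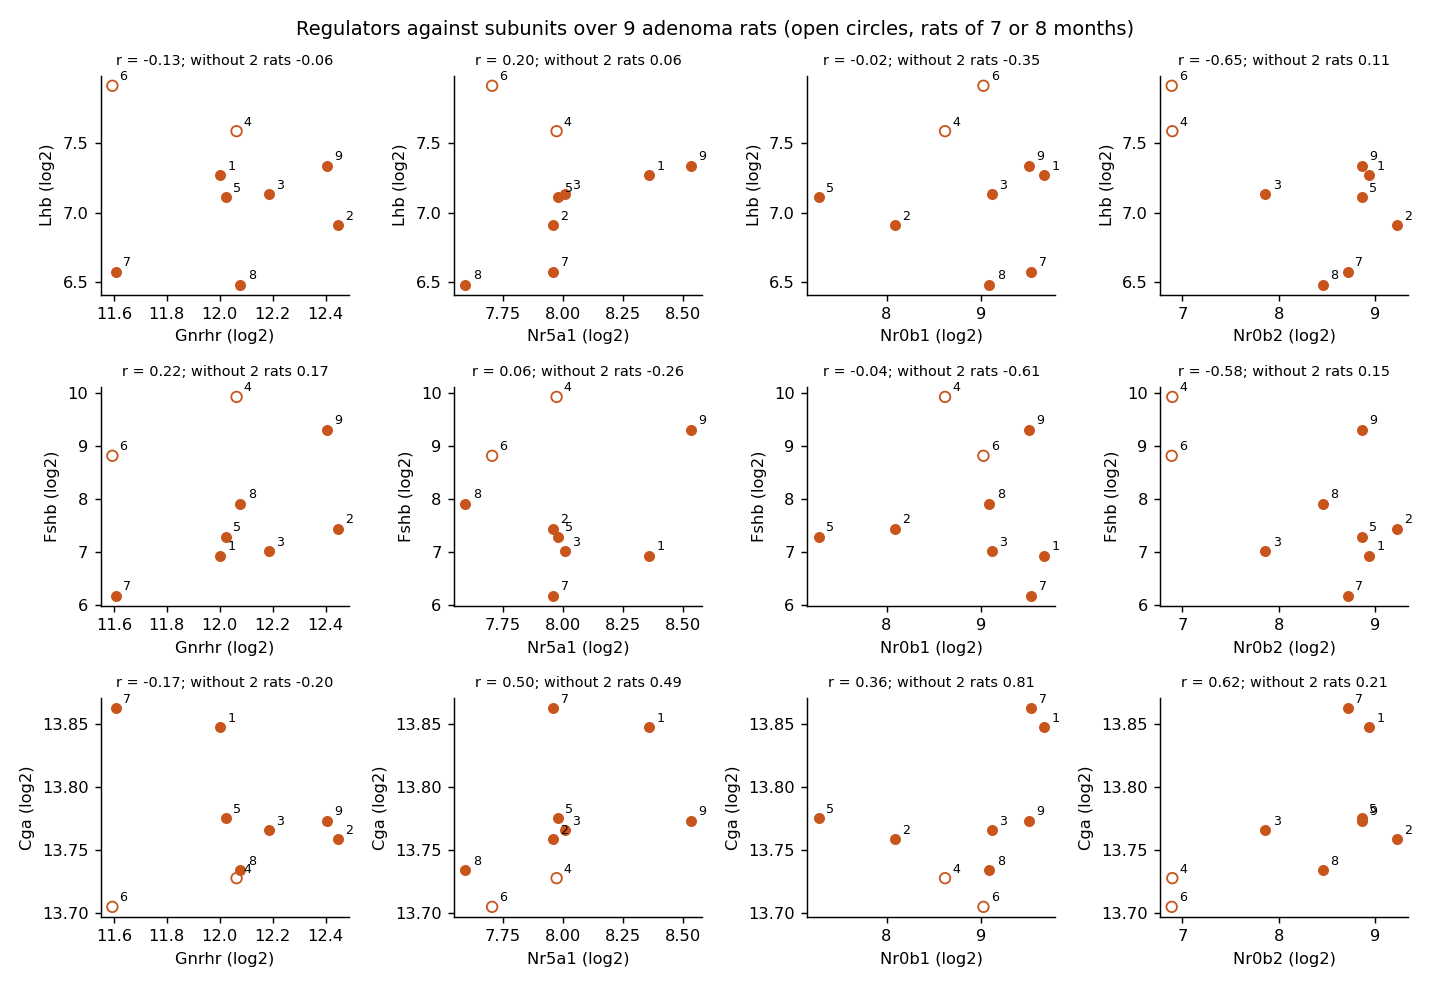
Each of the 4 regulators (columns, x axis, log2) against each of the 3 subunits (rows, y axis, log2) over the 9 adenoma rats, with the rat number beside each point and rats of 7 or 8 months as open circles. In the Nr0b2 column the open circles of rats 4 and 6 stand apart at about 6.89, and r fell to 0.11 for Lhb without them.

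Age was examined as a slope over the 9 adenoma rats, none of which passed the adjustment for these genes, against 1 probe set of 29214 (0.00342%). Nr0b2 had a slope of 0.39 log2 units per month (standard error 0.084, limma, adjusted p = 0.15), Lhb one of -0.17 (standard error 0.056, limma, adjusted p = 0.29) and Fshb one of -0.38 (standard error 0.17, limma, adjusted p = 0.43). The rats of 7 and 8 months had Nr0b2 at 6.90 and 6.89, below the 7.86 to 9.22 of the 7 rats of 10 to 12 months, and Lhb at 7.58 and 7.91, above the 6.48 to 7.34 of the older rats. Fshb was 9.93 and 8.81 in the young rats and 6.17 to 9.30 in the older ones. Within 10 to 12 months alone the slopes were 0.075 for Nr0b2, -0.089 for Lhb and 0.25 for Fshb, which is the opposite sign for Fshb (limma, adjusted p = 0.94, 0.89 and 0.90). Their standard errors were 0.17, 0.13 and 0.36 in the same order. For Nr0b2 and Fshb the slopes over all 9 rats depended largely on the 2 young rats. For Lhb the slope kept its sign without them, and its standard error is too wide to tell it from the slope over all 9 rats.

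**Figure D5:**
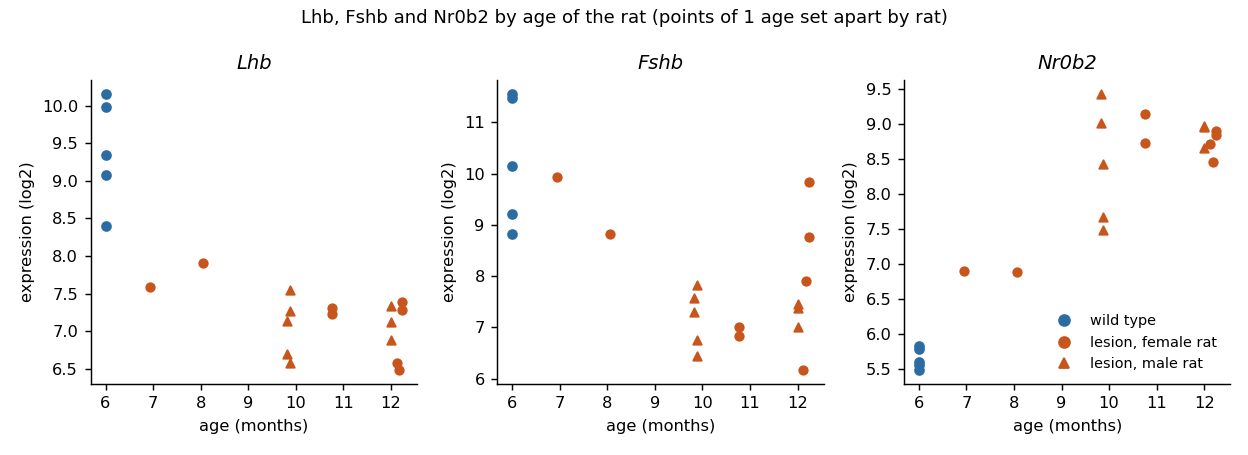
Lhb, Fshb and Nr0b2 (y axis, log2) against the age of the rat (x axis, months), with wild-type pituitaries in blue, lesions of females as orange circles and lesions of males as orange triangles. The single lesions at 7 and 8 months had Nr0b2 values of 6.90 and 6.89, between the wild-type pituitaries and the older lesions.

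The change did not pass as different between the sexes for any of the 7 genes, nor for any of the 29214 probe sets (limma interaction, 0 calls after adjustment, 6.78% at an unadjusted p under 0.05). The sizes still differed. Fshb changed by -0.85 in females and by -3.82 in males, a difference of 2.97 (standard error 1.09, limma, adjusted p = 0.63), and wild-type males had 11.06 ± 0.79 (SD, n = 3) where the wild-type females had 8.83 and 9.21. Nr0b1 changed by 2.23 in females and by 0.64 in males, a difference of 1.59 (standard error 0.53, limma, adjusted p = 0.58). Cga changed by 1.16 in females and by 0.75 in males, a difference of 0.41 (standard error 0.19, limma, adjusted p = 0.73). The unadjusted p of the limma interaction was 0.010 for Nr0b1, 0.017 for Fshb and 0.048 for Cga, and above 0.05 for the other genes. The 3 adenoma males all carried 08 numbers.

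The wild-type samples were normal pituitary, which holds all the cell types of the gland, and markers of other cell types differed between the groups, where 9.06% of all probe sets were called lower and 8.49% higher. Of 4 somatotroph markers all 4 were lower in adenomas, with summed log2 levels of 14.05 to 14.43 in wild type and 11.59 to 14.28 in lesions, and all 3 measured corticotroph markers were lower (11.43 to 12.56 against 7.72 to 11.24). The call of Gh1 was lost in 17 of 29 alternative fits, 10 of which left out a single rat. That of Ghsr was lost in 13, of which 6 left out a single rat. All 4 macrophage markers were higher (7.92 to 8.53 against 8.72 to 10.50). Among the others, 2 of 3 melanotroph, 1 of 3 thyrotroph, 2 of 4 folliculostellate and 3 of 4 posterior lobe markers were lower, and 1 of 3 lactotroph and 1 of 4 endothelial markers were higher. The arrays give no true 0, and their median over all probe sets was 6.36 to 6.53. In the lesions Gh1 ran from 10.57 to 14.01 against 13.79 to 14.09 in wild type, Prl from 13.63 to 13.87 against 13.58 to 13.84, Pomc from 6.16 to 11.15 against 11.21 to 12.48, and Tshb from 5.14 to 11.69 against 10.86 to 12.49. Gh1 and Prl stayed above that median in all lesions, while the lowest lesions lay below it for Pomc and Tshb. Cdkn1b itself was slightly higher in adenomas (log2 change 0.33, limma, adjusted p = 0.0324), and its RNA level does not check the mutation.

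Over the 9 adenoma rats, r between a summed marker level and a gene was largest in size for 8 of the pairs formed by the 9 marker lists and the 7 genes. For Nr0b2 it was 0.85 with macrophages, -0.80 with lactotrophs and -0.67 with the posterior lobe. The summed lactotroph level spanned only 13.68 to 13.98 in the lesions, near the top of the scale. For Lhb it was 0.81 with somatotrophs and 0.67 with the posterior lobe, and for Gnrhr 0.75 with thyrotrophs and -0.67 with corticotrophs. A sum of linear values weighs the brightest gene of a list most. By itself Gh1 had an r of 0.79 with Lhb, and with Gnrhr Pomc had -0.63 and Tshb 0.54. For Cga it was 0.76 with macrophages, over values at the ceiling that differed less between rats than within them. These are descriptions over rats that also differ in age, and the part of these cells in the levels of Lhb, Nr0b2, Cga and Gnrhr was not tested.

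Other genes of the gonadotroph were described from lists. Of 14 transcription factors that act in gonadotrophs or their precursors, 11 were measured, 1 was higher and 1 lower, with a median log2 change of -0.055 against -0.035 over all probe sets. That is about the share called over all probe sets (17.5%), so the list as a whole did not stand out, and its 2 called genes are given as single genes. Isl1, a LIM homeodomain factor, was higher by 0.96 (standard error 0.18, limma, adjusted p = 0.0020). Egr1, the immediate early factor that acts with SF-1 at Lhb, was lower, with a log2 change of -1.36 (standard error 0.38, limma, adjusted p = 0.0243), from 7.38 to 10.18 in wild type and from 6.52 to 8.53 in the lesions. Its call was lost without wild-type pituitary 3 or 4 (log2 changes of -1.07 and -1.03). Pitx1 (0.14), Gata2 (-0.077) and Lhx3 (0.32) did not pass.

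Of 21 genes that signal below the GnRH receptor, 18 were measured, 5 were higher and 3 lower, with a median of 0.17, against 8.49% and 9.06% of all probe sets called higher and lower. Prkcd, a protein kinase C isoform, was higher by 1.95 (standard error 0.22, limma, adjusted p = 7.6e-05), Rgs4, which turns off G proteins, by 0.96 and Prkce, another protein kinase C, by 0.77, and Map2k1, the kinase MEK1, was lower, with a log2 change of -0.68. Gnaq, the G protein to which the receptor couples, did not pass (0.35, limma, adjusted p = 0.093). The other calls, named after their values were seen, were Itpr3 and Gna11 higher and Itpr2 and Mapk8 lower. The call of Rgs4 was lost without wild-type pituitary 4 (0.70), that of Prkce without wild-type pituitary 2, 4 or 5 or adenoma rat 7 (0.67 to 0.74), that of Itpr3 without wild-type pituitary 2, 3 or 4 (0.52 to 0.60), and that of Itpr2 without any of 11 single rats (-0.63 to -0.42).

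In the glycoprotein hormone family, all 6 listed genes were measured, 1 was higher and 2 lower, against 8.49% and 9.06% of all probe sets. Tshb, the beta subunit of thyrotropin, had a log2 change of -3.75 (limma, adjusted p = 0.0046) and Gpha2, the alpha subunit of thyrostimulin, one of -0.74 (limma, adjusted p = 0.0093), and Tshr, the thyrotropin receptor, was higher by 1.78 (limma, adjusted p = 0.0148). Cga, the partner of Tshb, rose, while Tshb, Lhb and Fshb fell. The gonadotropin receptors Lhcgr and Fshr were low in both groups, with mean log2 levels between 3.65 and 4.14. Of 7 genes of the GnRH, kisspeptin and neurokinin B systems, 6 were measured and 0 called by limma, with no gene at an unadjusted p under 0.05. Over all probe sets 17.5% were called, and 6 genes are too few to set this list apart from that share.

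Of 6 steroid hormone receptors 5 were measured and 1 was called (17.5% over all probe sets), the mineralocorticoid receptor Nr3c2, with a log2 change of -1.31 (limma, adjusted p = 0.0058), and Pgr, the progesterone receptor, had a change of 1.16 (limma, adjusted p = 0.0576). Of 8 corepressors with which DAX1 and SHP can act, 6 were measured and 2 called, against 17.5% of all probe sets. Gps2 was higher by 0.29 (limma, adjusted p = 0.0244) and Ncor1 lower at -0.33 (limma, adjusted p = 0.0278), and both calls were lost without single wild-type pituitaries, numbers 4 or 5 for Gps2 (0.22 to 0.27) and 3, 4 or 5 for Ncor1 (-0.31 to -0.27). In the activin, inhibin and follistatin list, 1 of 11 genes was called, a smaller share than the 17.5% over all probe sets, and this was the activin receptor Acvr2a, with a log2 change of -0.41 (limma, adjusted p = 0.0204, lost without wild-type pituitary 3 at -0.39).

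Of 14 SF-1 targets known from adrenal and gonad, 12 were measured, 6 were higher and 0 lower (1 of the 12 had a negative change), with a median log2 change of 0.85. The study chose several of these on the same samples, so the count is not independent evidence of the direction. Called by limma, against 8.49% of all probe sets called higher, were Nos1, a nitric oxide synthase, higher by 4.32, Cyp11a1, the first enzyme of steroid synthesis, by 3.33, Scarb1, a receptor for high-density lipoprotein, by 3.21, and Angpt2, a vessel growth factor, by 1.25. Named after their values were seen, Cyp11b1 (1.01) and Fdx1 (0.69) were called too. Cyp11b2, the aldosterone synthase, had a larger change than 3 of the called genes, 1.73, but did not pass (limma, adjusted p = 0.0539), and neither did Star (0.44), Cyp17a1 (0.010), Mc2r (0.022), Insl3 (0.027) and Amh (-0.17). Among 5 measured genes of the gonadotropin granule and its glycans, 1 was called (17.5% over all probe sets), B4galnt4, with a log2 change of -0.59 (limma, adjusted p = 0.0194, lost without wild-type pituitary 5 at -0.51), while Scg2 (-0.025), Chga (0.17) and Chgb (-0.045) were not.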

How the data were processed

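Expression was measured on 21 arrays, 1 per sample. Per the methods and the submitters' processing notes, the authors used Expression Console of Affymetrix, where gene-level RMA corrects background, normalizes by sketch quantiles and applies median polish, and the deposited values are on the log2 scale. Program versions were not given in the sources used here. Over all arrays the values lay between 2.01 and 14.09, and array medians between 6.36 and 6.53. This normalization can hide a shift that most genes share, and values near background or near the top of the scale can understate folds. The number of arrays limits the precision, and p-values measure the spread between these rats.

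Groups, sex and age came from the labels. Lesions with 1 sample number were averaged, which gave 9 adenoma values (the study gives more rats and a narrower range of ages than the labels do) and 5 wild-type values. limma 3.58.1 in R 4.3.3 compared the groups with no other term (12 residual degrees of freedom, 3.21 prior ones) and adjusted p-values over all 29214 probe sets. Sex was tested as an interaction and age as a slope. Differences of 2 genes within a rat, and correlations, were tested by exact permutation, two-sided, where 0.0005 was the smallest p for 5 against 9 rats. On simulated data for the main comparison, with 29214 probe sets, the fit recovered 80 of 100 changes of 1 log2 unit and 98 of 100 of 2 units.

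Of the probe sets, 15310 have 1 gene symbol, 323 several and 13581 none, and none with several was named. A symbol that was not found alone on a probe set was counted as unmeasured. Summed levels of a list are log2 of the summed linear values. Promoter windows were those of RefSeq on GRCr8.

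The text names the 7 genes, Cdkn1b, up to 4 called genes of each list by size of change, the 3 genes most alike each of the 7 in r over the adenoma rats, and Gh1, Prl, Pomc and Tshb. The 7 genes, the lists, the motifs and this rule were chosen with earlier results of these data known. The motifs AGGTCA and AAGGCCA, the age fit with sex and the age fit in older rats were added after seeing the data. The alternatives tried were other treatments of lesions from 1 rat, t-tests, the number prefix, replicate number and sex in the fit, young adenomas alone, a filter on dim probe sets, other normalizations, array weights, a variance trend, and each rat left out.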

Additional observations from a re-analysis of the deposited data

How the results depend on the processing

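Every change of the 7 genes kept its direction under all 29 alternatives, and 24 (Fshb) to 28 of them (Lhb, Cga, Nr5a1 and Nr0b2) kept the call. With the adenomas of 7 or 8 months alone (2 rats) 1 of the 7 was called, Nr0b2 at 1.24, and the log2 changes that lost the call were -1.64 for Lhb, -0.87 for Fshb, 0.86 for Cga, 1.18 for Gnrhr, 1.17 for Nr5a1 and 1.50 for Nr0b1. With 08 numbers alone 3 were called, and the losses were -2.48 for Fshb, 0.90 for Gnrhr, 1.09 for Nr0b1 and 2.66 for Nr0b2, and with 09 numbers alone Fshb at -2.23. The unequal-variance test lost Fshb (-2.38) and Gnrhr (1.40) at the same values. Without single rats Fshb ran from -2.73 to -2.05, and its call was lost without wild-type pituitary 3. The probe sets called numbered 5127, and 7704 with lesions as independent samples, 1924 with the unequal-variance test, 708 with 08 numbers alone, 133 with young adenomas alone, and 3222 (without wild-type pituitary 4) to 6886 (without wild-type pituitary 1) with single rats left out. The methods' t-test on the 16 lesions, at an adjusted p under 0.05, called 7418. Fewer samples enter several of these fits, and the cause of the other differences was not tested. With the replicate number as a block the 7 genes kept their calls (Fshb -3.21, Nr0b2 3.15, Lhb -2.40) and 4744 probe sets were called. That fit held only lesions 1 to 5, all with 08 numbers, beside the 5 wild-type pituitaries. They came from adenoma rats 1 to 3 and were entered as separate samples, so its calls overstate the number of independent animals. The replicate numbers count lesions and do not pair the rats, and same-numbered samples hardly deviated together (correlations of 0.013 to 0.22). Without single rats the shift of Fshb against Lhb ran from -0.48 to 0.090. Of the correlations, Nr5a1 with Fshb turned to -0.13 as Spearman's rho and to -0.26 without the farthest rats, Nr0b2 turned to 0.11 with Lhb and 0.15 with Fshb without them, and Gnrhr with Cga turned to 0.12 on centred arrays. Without single rats r ran from -0.53 to 0.36 (Gnrhr and Lhb), -0.095 to 0.48 (Gnrhr and Fshb), -0.61 to 0.30 (Gnrhr and Cga), -0.13 to 0.63 (Nr5a1 and Lhb), -0.36 to 0.22 (Nr5a1 and Fshb), -0.11 to 0.15 (Nr0b1 and Lhb) and -0.28 to 0.16 (Nr0b1 and Fshb), and no relation passed the adjustment in any of these. Of the 6 windows 1 held AAGGTCA, 3 held AGGTCA and 3 held AAGGCCA. Other probe sets of a gene could not be tried, since each gene had 1.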

Other observations

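For each of the 7 genes the 3 named genes with the highest Pearson's r over the 9 adenoma rats were looked up among the 15310 with 1 symbol. With so few rats and so many genes some r near 1 arises in any such search, so they are given as descriptions, with no p. For Lhb they were Plag1, a zinc finger factor (r = 0.97, log2 change -1.84 in adenomas), Acot12 and Zfp709 (both 0.96). For Fshb they were Zfp513 (0.95), Ptf1a and Tdrd1 (both 0.93). For Cga they were Sct, which encodes secretin (0.96), Fcgrt (0.95) and Fam3b (0.94). For Gnrhr they were Zup1 (0.90), Uba6 (0.90), which is the next gene after Gnrhr on the chromosome, and Art5 (0.89). For Nr5a1 they were Ogfrl1 (0.94), Or9e1b (0.92) and Nr1h3, the liver X receptor alpha (0.92). For Nr0b1 they were Cidec (0.93), Adgrl2 and Chn1 (both 0.92). For Nr0b2 they were Idh3a, a subunit of the mitochondrial isocitrate dehydrogenase, Mid1ip1 and Klhdc2 (0.98 each).

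Over the 9 adenoma rats, as descriptions with no test, r was 0.64 for Lhb and Fshb, -0.44 for Lhb and Cga and -0.71 for Fshb and Cga, the last over a span of Cga of only 13.71 to 13.86. The wild-type rats were too few for a correlation. In them the highest Lhb, Fshb, Cga, Gnrhr and Nr0b1 were all those of wild-type pituitary 2, at 10.16, 11.56, 13.23, 11.56 and 7.87, while Nr5a1 was highest in wild-type pituitary 5, at 7.03.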
